A study of Cucumis sativus with 12 samples.

Results

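Histone, DNA replication and cell cycle genes were followed through 24 h of cold in leaves of cucumber (Cucumis sativus) seedlings. Genes were taken by description: core and linker histones, replication factors including MCM helicase subunits and proliferating cell nuclear antigen (PCNA), ribonucleotide reductase, A-, B- and D-type cyclins, and kinesins. Names of histone-modifying enzymes (methyltransferase, demethylase, acetyl, lysine) were left out. The pattern for D-type cyclins also took in genes named for cyclin-dependent kinases (CDKs). Of 24317 genes in the deposited table, 136 had such a description, and 104 of these reached at least 1 FPKM (fragments per kilobase of transcript, scaled to the mapped fragments of the library) in at least 3 of 12 libraries. The 104 members were part of 16432 genes that passed the same filter and were tested. They comprised 21 core histones, 4 linker histones, 13 genes of the replication machinery, 2 ribonucleotide reductase subunits, 17 cyclins, 18 CDKs and CDK regulators, 27 kinesins and 2 other matches. At the edge of the filter, kinesin-1 (CsaV3_1G011320) was just inside with 1.02 FPKM in the library that decides, and a NACK2 gene (CsaV3_5G027690) just outside with 0.944.

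All seedlings had received a leaf spray of chitosan oligosaccharide (COS), a breakdown product of chitosan, at 50 mg/L and were kept at 28/18 °C (day/night, 12 h of light) for 24 h. They then stood at 12/6 °C for 0, 3, 12 or 24 h, the fully expanded leaves were taken, and 3 libraries were made per duration. The 0 h group is thus sprayed and unchilled; water-sprayed seedlings were not analysed here, and time since the spray, and clock time, cannot be told apart from time in the cold. Whether the 3 libraries per duration stem from different plants is not stated, and p-values rest on their spread, which may be technical in part.

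Dividing plant cells make most of their core histones (H2A, H2B, H3 and H4) during DNA synthesis, when new chromatin is packed, whereas variants such as H3.3 are made throughout the cell's life. MCM proteins are loaded onto origins before DNA synthesis and unwind DNA at the fork, PCNA holds the polymerases on DNA, and ribonucleotide reductase supplies deoxynucleotides. Cyclins switch on CDKs, with D-type cyclins linking growth signals to the start of the cycle, while inhibitors of the KRP and SMR families hold CDKs back. Kinesins are motors that move along microtubules, some in the mitotic spindle and the phragmoplast that builds the new wall, others in cells that do not divide. In fully expanded leaves few cells divide, and some cells copy their DNA without dividing.

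Depth was 16.6 to 21.6 M fragments per library (M, 10 to the power of 6), from totals of 62.7 to 81.6 M units of estimated count. Across tested genes, log2 levels correlated at 0.9809 or above between libraries of the same group at 0, 3 and 12 h and at 0.9615 to 0.9765 at 24 h. Leaf identity was checked with 19 mesophyll genes (Rubisco small subunits and chlorophyll a-b binding proteins), whose summed level was 21924 to 23506 FPKM at 0 h and 45877 to 49966 at 12 h, and with 2 root genes, whose summed level was at most 0.695 FPKM. Of 30 genes on a list for meristems and young leaves, 16 passed the filter and 4 were at 0 in every library. Among those at 0 were a knotted-1-like LET6 gene (CsaV3_6G048730) and WUSCHEL-related homeobox 11 (CsaV3_3G039320). The list was taken by names such as knotted, WUSCHEL-related, AINTEGUMENTA and growth-regulating factor. Whether each gene is limited to meristems or young leaves was not checked, so its sum is no measure of such tissue. The summed level of the 30 was 276 ± 17.5 FPKM at 0 h, 304 ± 3.45 at 3 h, 345 ± 9.32 at 12 h and 355 ± 29.2 at 24 h (SD, n = 3).

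Most core histone genes were lower after 24 h of cold than before it. Of 21 core histone genes, 2 rose and 6 fell after 3 h, 4 rose and 10 fell after 12 h, and 2 rose and 16 fell after 24 h (edgeR quasi-likelihood test, Benjamini-Hochberg adjusted p below 0.05 over all tested genes). Of all tested genes, 29.4% rose and 28.3% fell at 3 h, 34.4% and 33.0% at 12 h, and 36.2% and 37.9% at 24 h. With 1 library left out, 0 to 2 core histones rose and 5 to 7 fell at 3 h. At 12 h 3 or 4 rose and 7 to 11 fell, and at 24 h 1 or 2 rose and 15 or 16 fell. From 3 to 12 h 9 rose (5 without 3 h replicate 1 or 2) and 8 fell, with a median log2 change of 0.10, where 27.9% of all tested genes rose and 27.6% fell. From 12 to 24 h no core histone rose and 14 fell, where 24.5% of all tested genes rose and 27.4% fell. The median log2 fold change of core histones at 24 h was -0.63, against -0.03 for all tested genes. The summed level of the 21 genes was 1163 ± 45.8 FPKM at 0 h, 886 ± 12.7 at 3 h, 926 ± 36.0 at 12 h and 708 ± 44.1 at 24 h (SD, n = 3), so the sum, most of it H3.3, had its largest drop before 3 h. Without the 3 H3.3 genes it was 415 ± 41.0, 369 ± 6.96, 338 ± 17.7 and 265 ± 7.42 FPKM. In bulk leaf RNA, fewer cells of a type and less RNA per cell cannot be told apart.

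The steepest fall among core histones at 24 h was that of histone H4 (CsaV3_6G017050, chromosome 6, 12717922 to 12722350). Its 3 libraries stood at 9.08, 11.6 and 8.67 FPKM at 0 h, 10.3, 8.03 and 8.41 at 3 h, 1.94, 2.91 and 2.45 at 12 h, and 0.676, 0.672 and 0.764 at 24 h. The 3 h libraries overlapped those at 0 h, and every 12 h and 24 h library was below both groups. The log2 fold change against 0 h was -0.13 (SE 0.18) at 3 h, -1.95 (SE 0.19, adjusted p = 1.77e-06) at 12 h and -3.73 (SE 0.21, adjusted p = 8.84e-09) at 24 h. The 24 h value rests on about 50.9 fragments over 3 libraries, against 682 at 0 h.

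H2A.5 (CsaV3_2G006590, chromosome 2, 3214938 to 3215460) had 42.7, 60.8 and 37 FPKM at 0 h and 31.3, 19.5 and 30.5 at 3 h. It then had 15.5, 12.7 and 10.7 FPKM at 12 h and 4.38, 3.99 and 3.99 at 24 h. The 4 groups did not overlap, and the levels stepped down at each duration. The log2 fold changes against 0 h were -0.79 (SE 0.22, adjusted p = 0.00849), -1.80 (SE 0.23, adjusted p = 1.81e-05) and -3.44 (SE 0.24, adjusted p = 8.58e-08).

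Histone H3.2, the replication-coupled form of H3, has 2 members that went opposite ways. One (CsaV3_7G031310, chromosome 7, 19795466 to 19795876) stood at 11.5, 11.1 and 7.80 FPKM at 0 h and 10.8, 9.36 and 9.59 at 3 h, then at 5.83, 4.71 and 5.13 at 12 h and 1.11, 0.802 and 0.764 at 24 h. It fell by 3.42 on the log2 scale at 24 h (SE 0.24, adjusted p = 8.99e-08), with no overlap between the 24 h libraries and any other group. The other (CsaV3_1G042610, chromosome 1, 27537631 to 27538041) had 4.98, 7.13 and 5.81 FPKM at 0 h and 8.19, 9.65 and 10.3 at 12 h, a log2 change of 0.70 (SE 0.22, adjusted p = 0.0143). Its 24 h libraries, at 7.03, 10.3 and 9.65, overlapped those at 0 h, with a log2 change of 0.64 (SE 0.22, adjusted p = 0.0196). The 24 h call was lost when any of 3 libraries was left out (0 h replicate 1 or 3, 24 h replicate 2; adjusted p 0.0527 to 0.0766), and the 12 h call without 0 h replicate 1 or 12 h replicate 3 (adjusted p = 0.0587 and 0.0520). It overlaps a gene on the same strand (CsaV3_1G042590, mean 0.00208 FPKM at 0 h and 1.40 at 12 h), so reads of this pair cannot be told apart.

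**Figure D1:**
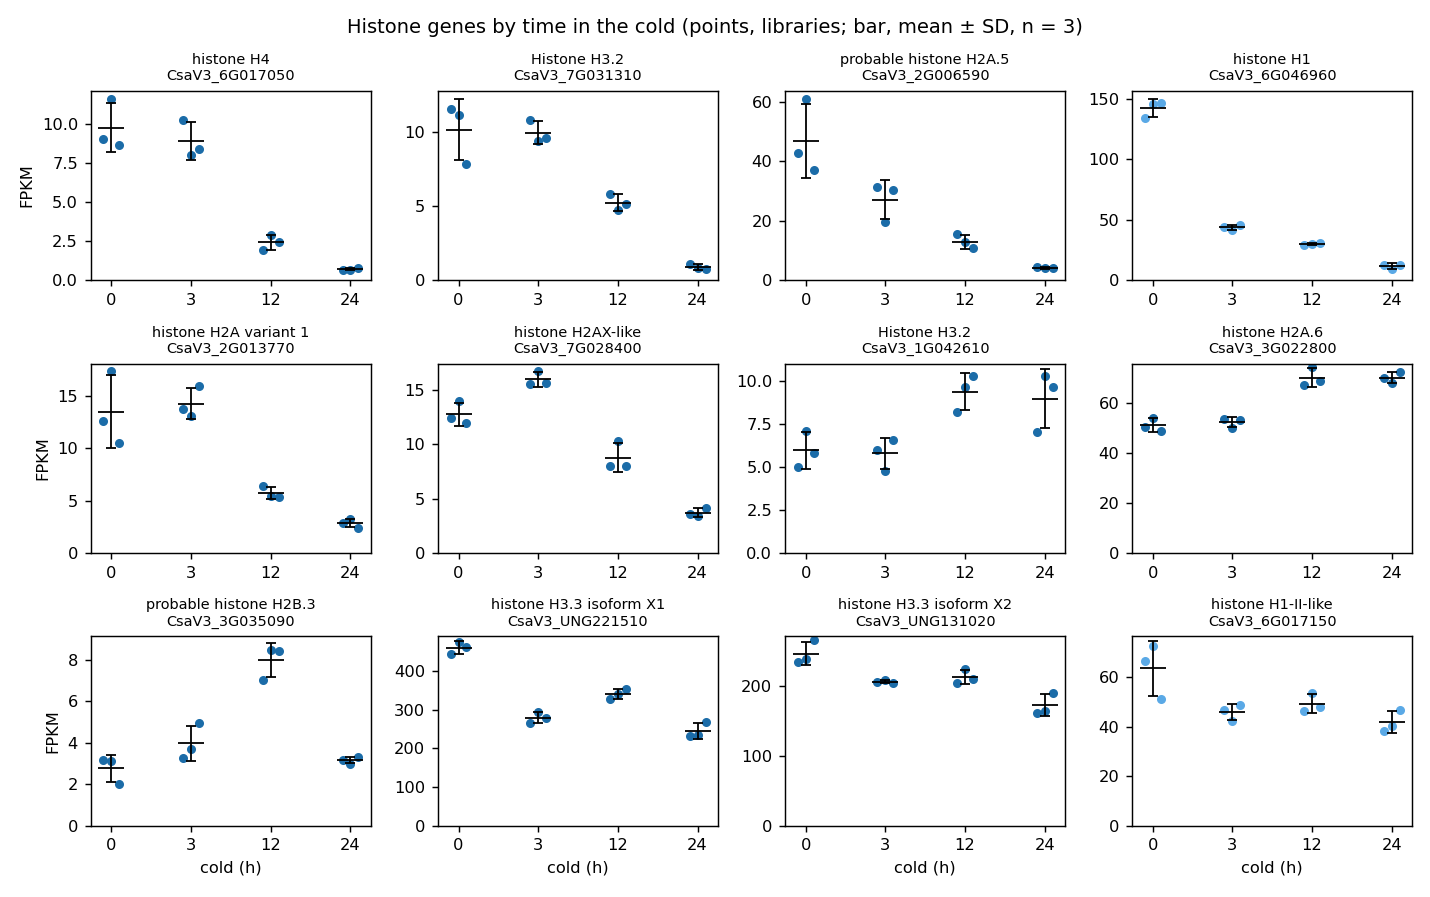
Level in FPKM (vertical axis, from 0) against time in the cold in hours (evenly spaced, not to scale) for 12 histone genes, with a point per library and a bar for mean ± SD (n = 3). Histone H4, the H3.2 gene on chromosome 7, H2A.5 and an H1 gene (CsaV3_6G046960) end at means of 0.704, 0.892, 4.12 and 11.7 FPKM, whereas H2A.6 ends above its 0 h libraries.

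Most H3 transcript was of the replacement form. The 3 H3.3 genes held 96.1% to 98.0% of summed H3 FPKM in every library, so the fall of H3.2 hardly shows in the total. H3.3 isoform X1 (CsaV3_UNG221510), the most abundant member, had 442, 475 and 461 FPKM at 0 h, 265, 294 and 278 at 3 h, 326, 341 and 353 at 12 h and 231, 233 and 268 at 24 h. It fell early, rose partly back and fell again, with log2 changes of -0.72 (SE 0.07) at 3 h, -0.38 (SE 0.07) at 12 h and -0.86 (SE 0.07) at 24 h and adjusted p-values between 5.32e-07 and 0.000635. H3.3 isoform X2 (CsaV3_UNG131020) fell at 24 h, from 246 ± 16.7 to 172 ± 16 FPKM, and the remaining H3.3 gene (CsaV3_UNG152160) from 41.5 ± 0.774 to 26.2 ± 2.1 (SD, n = 3). Centromeric H3 (HTR12, CsaV3_7G025320), which marks the site of kinetochores, stood at 2.12 ± 0.490 FPKM at 0 h and 3.33 ± 0.379 at 3 h. Its call at 3 h (log2 0.65, adjusted p = 0.0231) was lost without any of 4 single libraries (0 h replicates 2 and 3, 3 h replicates 1 and 2).

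Of 9 H2A genes, 7 fell and 1 rose at 24 h (77.8% and 11.1%, against 37.9% and 36.2% of all tested genes). H2A variant 1 (CsaV3_2G013770) went from 13.5 ± 3.44 FPKM at 0 h to 2.84 ± 0.397 at 24 h, an H2AX-like gene (CsaV3_7G028400), of the form phosphorylated at DNA breaks, from 12.7 ± 1.05 to 3.7 ± 0.394, and an H2A gene (CsaV3_6G022220) from 5.79 ± 0.383 to 1.66 ± 0.225. The last of these was still at 6.61 ± 0.995 FPKM at 12 h. Their log2 changes at 24 h were -2.19, -1.72 and -1.74 (SE 0.19, 0.17 and 0.17). The H2A gene that rose was H2A.6 (CsaV3_3G022800), at 50.4, 54.2 and 48.7 FPKM at 0 h and 70.2, 68.0 and 72.5 at 24 h, with no overlap and a log2 change of 0.51 (SE 0.07, adjusted p = 2.52e-05).

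Of 5 H2B genes, 4 fell at 24 h and none rose, where 37.9% of all tested genes fell and 36.2% rose. The 3 H2B.7-like genes lie near each other on the minus strand of chromosome 1 (9589609 to 9620753), and their log2 changes at 24 h were -0.75, -0.48 and -1.58 (SE 0.15, 0.11 and 0.09); the steepest of them (CsaV3_1G014150) overlaps another H2B.7-like gene on the opposite strand, itself at 0 or near it. H2B.3 (CsaV3_3G035090) had its peak at 12 h, with 3.18, 3.12 and 2.02 FPKM at 0 h, 7.02, 8.46 and 8.42 at 12 h and 3.19, 3.00 and 3.33 at 24 h. Its rise at 12 h was 1.58 (SE 0.20, adjusted p = 2.17e-05), and its 24 h libraries overlapped those at 0 h. Summed over genes, H2B was at 69.6 to 87.5 FPKM at 0 h and 41.7 to 45.9 at 24 h, and H2A at 285 to 341 and 202 to 213. Copies of histone genes are often near-identical, and the sources do not say how reads with several matches were counted, so levels of single copies are uncertain.

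Linker histones bind DNA between nucleosomes, and an abundant one fell at every duration. Histone H1 (CsaV3_6G046960, chromosome 6, 27715754 to 27717181) stood at 134, 146 and 147 FPKM at 0 h, 43.8, 41.4 and 45.9 at 3 h, 29.4, 30.2 and 31.0 at 12 h, and 12.9, 9.11 and 13.0 at 24 h. No groups overlapped, and unlike H4 it was already lower at 3 h. The log2 changes were -1.70 (SE 0.12), -2.18 (SE 0.12) and -3.55 (SE 0.13), with adjusted p-values of 2.49e-07, 1.61e-08 and 2.63e-10. Of the 4 linker histones, 2 fell at 3 h, 2 at 12 h and 4 at 24 h, where 28.3%, 33.0% and 37.9% of all tested genes fell. With 1 library left out, however, these counts ranged from 2 to 4 at 3 h, 1 to 3 at 12 h and 2 to 4 at 24 h. The highest count at 3 h came without 24 h replicate 1 and the lowest at 24 h without 24 h replicate 2, while 6 single libraries (0 h replicates 1 and 2, 3 h replicate 1, 12 h replicates 1 and 3, 24 h replicate 2) each left 1 at 12 h. H1-II-like (CsaV3_6G017150) went from 63.5 ± 11.1 to 41.9 ± 4.36 FPKM at 24 h, a log2 change of -0.54; its call at 12 h (log2 -0.32, adjusted p = 0.0419) was lost without any of these 6 libraries (adjusted p 0.0521 to 0.193). H1-like (CsaV3_2G003970), which overlaps a gene on the opposite strand, went from 19.8 ± 7.46 to 11 ± 2.37; its log2 change of -0.79 (adjusted p = 0.0148) was -0.43 (adjusted p = 0.0957) without 0 h replicate 2, the library with 28.4 FPKM, and -0.69 (adjusted p = 0.0581) without 24 h replicate 2. The other H1 gene (CsaV3_6G036780) had 26.4 ± 1.19 FPKM at 0 h, 31.9 ± 2.90 at 12 h and 18.5 ± 4.94 at 24 h, and its call at 24 h (log2 -0.46, adjusted p = 0.0162) was lost without 24 h replicate 1 or 2 (adjusted p = 0.0566 and 0.0644).

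Subunits of the replication helicase had their highest mean at 3 h and their lowest at 24 h. Of MCM2 to MCM7, which form a ring of 6, 5 were members (no description names MCM6). Of these 5, 3 rose and none fell at 3 h, none rose and 3 fell at 12 h, and none rose and 4 fell at 24 h. The shares of all tested genes that rose and fell were 29.4% and 28.3% at 3 h, 34.4% and 33.0% at 12 h, and 36.2% and 37.9% at 24 h. The median log2 fold change of the 5 was 0.60, -0.48 and -1.39 at 3, 12 and 24 h. With 1 library left out, the number that rose at 3 h was between 2 and 5 (5 without 24 h replicate 1 or 3), the number that fell at 12 h between 1 and 3 (1 without 0 h replicate 2) and the number that fell at 24 h 4 or 5. DESeq2 called 5 of 5 higher at 3 h.

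MCM4 (CsaV3_7G000210, chromosome 7, 360064 to 365832) had 2.89, 3.09 and 2.65 FPKM at 0 h and 4.66, 4.33 and 4.58 at 3 h. It dropped to 2.02, 1.60 and 1.71 FPKM at 12 h and 0.661, 0.984 and 0.987 at 24 h. The 4 groups did not overlap, and the order was 3 h, 0 h, 12 h, 24 h. Its log2 changes against 0 h were 0.65 (SE 0.16, adjusted p = 0.00356), -0.64 (SE 0.16, adjusted p = 0.00317) and -1.65 (SE 0.16, adjusted p = 1.64e-06). MCM7 (CsaV3_7G029940) shared the early rise, from 2.45 ± 0.262 to 4.40 ± 0.662 FPKM, and stood at 1.05 ± 0.428 at 24 h.

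MCM5 (CsaV3_2G003500) had 1.76, 2.66 and 2.19 FPKM at 0 h, 3.33, 3.38 and 3.35 at 3 h, 1.40, 1.36 and 1.03 at 12 h and 0.320, 0.608 and 0.680 at 24 h. Its 3 h libraries were all above those at 0 h, but the test gave an adjusted p of 0.0508 there, and its fall at 24 h was -1.98 (SE 0.26, adjusted p = 1.91e-05). Its call at 12 h (log2 -0.75, adjusted p = 0.0178) was lost without 0 h replicate 2 or 12 h replicate 3 (adjusted p = 0.0783 and 0.0715). MCM3 (CsaV3_6G051630) fell from 2.39 ± 0.193 to 0.878 ± 0.156 FPKM at 24 h. MCM2 (CsaV3_3G032880) rose at 3 h, from 3.06 ± 0.117 to 4.19 ± 0.472 FPKM (log2 0.45, adjusted p = 0.0463), and with 2.37 ± 0.740 FPKM at 24 h was not called. From 3 to 12 h, 4 of the 5 fell, and from 12 to 24 h again 4 of 5, where 27.6% and 27.4% of all tested genes fell.

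MCM8, which lies outside that ring and in Arabidopsis acts in repair of DNA breaks in meiosis, went the other way. The gene (CsaV3_3G035520, chromosome 3, 29769169 to 29779042) had 2.21, 2.55 and 2.33 FPKM at 0 h and 33.5, 26.6 and 31.6 at 3 h, then 44.4, 48.2 and 46.3 at 12 h and 21.1, 29.2 and 40.3 at 24 h. Every chilled library was above every unchilled one, and the 24 h libraries spread widely. The log2 changes were 3.69 (SE 0.20), 4.34 (SE 0.21) and 3.73 (SE 0.20), with adjusted p-values of 4.14e-08, 5.22e-09 and 7.39e-09. It overlaps a pair of genes on the opposite strand that are listed at 0 in every library, and the strand setting of the counting is not stated, so its reads cannot be placed on a strand. The summed level of the 13 replication genes, 30.4 to 32.4 FPKM at 0 h and 62.1 to 71.4 at 3 h, carries this one gene's rise.

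Both PCNA genes rose at 12 and 24 h, and 1 of them already at 3 h. PCNA (CsaV3_6G016510) had 2.53, 2.40 and 2.59 FPKM at 0 h and 4.50, 5.48 and 4.88 at 3 h, a rise of 0.98 (SE 0.16, adjusted p = 0.00022). It had 3.99 ± 0.301 FPKM at 12 h (log2 0.73, SE 0.16, adjusted p = 0.00139) and stood at 3.2 ± 0.532 at 24 h. Its call at 24 h (log2 0.41, adjusted p = 0.0329) was lost without any of 5 single libraries (each 0 h library, and 24 h replicates 2 and 3). The PCNA-like gene (CsaV3_5G008820) had 1.0, 0.606 and 0.483 FPKM at 0 h, 0.592, 0.795 and 0.706 at 3 h, 3.45, 2.91 and 3.14 at 12 h and 2.53, 1.57 and 1.91 at 24 h. It did not move at 3 h beyond its spread (log2 0.01, SE 0.30) and rose by 2.24 (SE 0.30, adjusted p = 3.19e-05) at 12 h and 1.58 (SE 0.30, adjusted p = 0.000396) at 24 h.

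Of 4 subunits of GINS, a partner of the MCM helicase, 3 were called at no duration in the test over all durations. SLD5 (CsaV3_3G008790) was at 5.54 ± 0.473 FPKM at 0 h, 4.43 ± 0.520 at 3 h and 7.84 ± 0.758 at 24 h; its fall at 3 h (log2 -0.33, adjusted p = 0.048) was lost without any of 7 single libraries, and its rise at 24 h was 0.55 (SE 0.13, adjusted p = 0.0019). DNA2 (CsaV3_3G010270), a helicase and nuclease that trims lagging-strand fragments, went from 2.52 ± 0.301 to 1.48 ± 0.118 FPKM at 12 h (log2 -0.72, adjusted p = 0.0117). Ribonucleotide reductase split by subunit. The small chain (CsaV3_3G027630) had 4.56, 4.26 and 4.16 FPKM at 0 h, 8.14, 7.83 and 8.47 at 3 h, 10.0, 12.3 and 11.8 at 12 h and 7.25, 7.77 and 10.4 at 24 h, a rise of 0.91, 1.45 and 1.03 (SE 0.14 each) with every chilled library above the unchilled ones. The large subunit (CsaV3_6G042080) fell at 12 h, from 2.83 ± 0.527 to 1.73 ± 0.0974 FPKM (log2 -0.66, adjusted p = 0.0164), a call lost without 0 h replicate 2 or 12 h replicate 1 (adjusted p = 0.0762 and 0.0535).

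**Figure D2:**
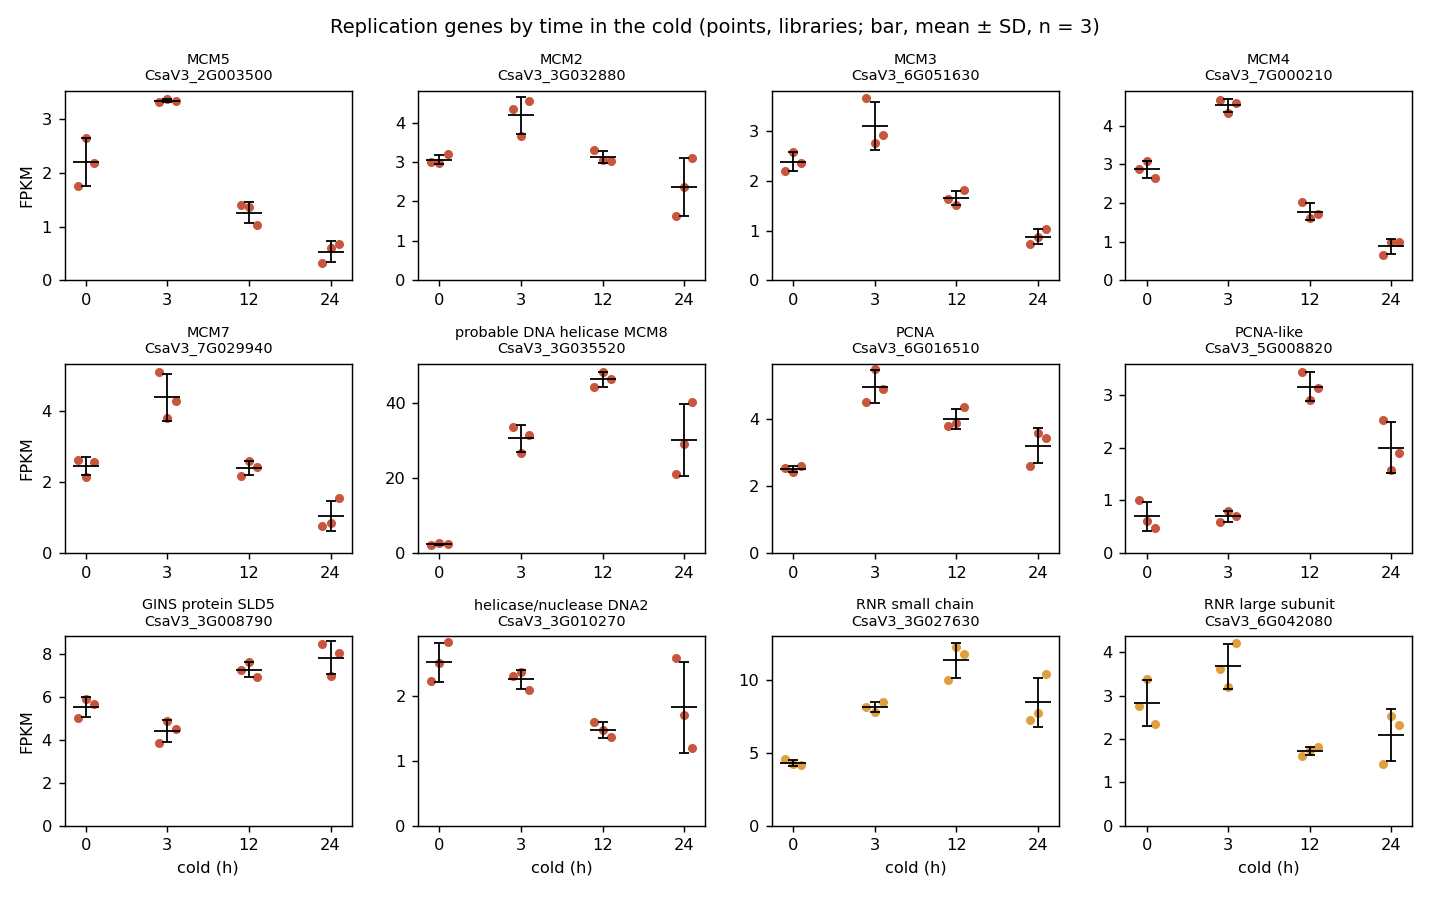
Level in FPKM (vertical axis, from 0) against time in the cold in hours (evenly spaced, not to scale) for 12 replication genes, with a point per library and a bar for mean ± SD (n = 3; RNR, ribonucleotide reductase). The MCM ring subunits have their highest mean at 3 h and their lowest at 24 h, while MCM8 and the small chain of ribonucleotide reductase stay above 0 h throughout the cold.

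Cyclins moved in both directions, with D-type cyclins among the sharpest early rises. Of 17 cyclins, 7 rose and 2 fell at 3 h (41.2% and 11.8%, against 29.4% and 28.3% of all tested genes). At 12 h 7 rose and 5 fell (41.2% and 29.4%, near the 34.4% and 33.0% of all tested genes). At 24 h 7 rose and 6 fell (41.2% and 35.3%, near 36.2% and 37.9%). Of the 11 D-type cyclins, 6 rose and 1 fell at 3 h (54.5% and 9.09%), and 4 rose and 4 fell at 24 h (36.4% each).

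Cyclin-D6-1 (CsaV3_6G012330), named for a gene that in Arabidopsis drives formative divisions in the root, had 16.2, 18.1 and 15.8 FPKM at 0 h and 41.5, 43.4 and 44.3 at 3 h. It then had 8.17, 8.52 and 7.66 FPKM at 12 h and 2.21, 2.58 and 3.07 at 24 h. Libraries of the 4 durations did not overlap, so a transient peak was followed by levels below the start. The log2 changes were 1.37 (SE 0.11, adjusted p = 5.97e-07), -0.99 (SE 0.11, adjusted p = 4.62e-06) and -2.62 (SE 0.11, adjusted p = 1.11e-09).

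Members of the D3 class, which in Arabidopsis responds to cytokinin and keeps leaf cells dividing, also changed sharply. Cyclin-D3-2-like (CsaV3_4G034710) rose from 1.22, 1.5 and 1.38 FPKM at 0 h to 14.3, 12.3 and 11.4 at 3 h, a log2 change of 3.2 (SE 0.38, adjusted p = 2.19e-05). At 24 h its libraries stood apart from one another at 5.45, 2.43 and 1.47 FPKM and overlapped those at 0 h, although the difference was called (log2 1.24, SE 0.37, adjusted p = 0.00857). A D3-3 gene (CsaV3_7G008310) rose from 2.51 ± 0.380 to 15.1 ± 1.49 FPKM at 3 h (log2 2.59, SE 0.24) and was at 3.25 ± 1.19 at 24 h. A D3-3-like gene (CsaV3_2G026460) peaked later, at 0.726, 0.427 and 0.677 FPKM at 0 h, 1.32, 0.992 and 1.22 at 3 h, 5.63, 5.31 and 5.5 at 12 h and 3.25, 3.09 and 3.16 at 24 h. Its groups did not overlap, and its change at 12 h was 3.21 (SE 0.20, adjusted p = 4.73e-08).

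Cyclins that fell included D1-1 and A3-1. D1-1 (CsaV3_5G025710) went from 12.0 ± 0.50 FPKM at 0 h to 6.79 ± 0.317 at 3 h and 4.81 ± 0.866 at 24 h, and the other D1-1 gene (CsaV3_5G031850) from 10.6 ± 1.22 to 5.45 ± 0.935 at 24 h. Cyclin-A3-1 (CsaV3_2G026360) had 3.36, 6.85 and 4.10 FPKM at 0 h, 1.72, 2.01 and 1.79 at 3 h, 0.827, 0.666 and 0.923 at 12 h and 1.02, 1.22 and 0.572 at 24 h; every chilled library was below the unchilled ones, and the change at 12 h was -2.51 (SE 0.32, adjusted p = 2.34e-05). The other A3-1 gene (CsaV3_4G034820) rose at all 3 durations, by 0.73, 0.67 and 0.69 (SE 0.23 each). Cyclin-A2-1-like (CsaV3_2G031640), which overlaps a gene on the opposite strand, fell at 12 h by 1.10 on the log2 scale (SE 0.27). The most abundant gene under a cyclin name, cyclin-B1-2 (CsaV3_5G039100), went from 50.6 ± 1.97 to 65.5 ± 9.29 FPKM at 24 h (log2 0.43, adjusted p = 0.00228). The deposited table gives it proteasome terms, which go against its name, and B-type cyclins otherwise had 1 member, B3-1 (CsaV3_7G023020), which fell from 1.62 ± 0.413 FPKM at 0 h to 0.933 ± 0.111 at 24 h (log2 -0.74, adjusted p = 0.0107).

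Of 8 CDK inhibitors, 5 rose and none fell at 3 h, 4 rose and 3 fell at 12 h, and 3 rose and 3 fell at 24 h. At 3 h 62.5% rose, where 29.4% of all tested genes rose and 28.3% fell. At 12 h 50.0% rose and 37.5% fell (34.4% and 33.0% of all tested genes). At 24 h 37.5% rose and 37.5% fell, near the 36.2% and 37.9% of all tested genes. The 2 inhibitor 3-like genes, of the KRP type, both rose at 3 and 12 h and peaked at different times. One (CsaV3_3G029910) had 3.72, 3.18 and 3.15 FPKM at 0 h, 6.71, 6.92 and 7.28 at 3 h, 6.23, 6.42 and 6.57 at 12 h and 24.2, 28.5 and 33.9 at 24 h. All chilled libraries exceeded the unchilled ones, and the largest step came after 12 h, with a log2 change of 3.16 (SE 0.13, adjusted p = 7.42e-10) at 24 h. The other (CsaV3_7G025920) had 7.35, 5.52 and 5.38 FPKM at 0 h, 21.3, 23.0 and 22.1 at 3 h, 11.9, 12.4 and 10.9 at 12 h and 5.38, 5.43 and 8.11 at 24 h. It peaked at 3 h (log2 1.86, SE 0.18, adjusted p = 3.97e-06) and overlapped its 0 h libraries again at 24 h.

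Inhibitor 5 (CsaV3_3G011030) rose and then fell, at 11.2 ± 0.556, 16.3 ± 0.379, 7.35 ± 0.511 and 3.51 ± 0.392 FPKM in order of time, and an inhibitor 5-like gene (CsaV3_2G011460) had 13.2 ± 0.535, 19.5 ± 1.44, 9.16 ± 0.747 and 8.96 ± 0.587. SMR3-like inhibitors, of a family unique to plants that also responds to stress, differed from each other. One (CsaV3_4G024290) rose at every duration, from 1.54 ± 0.0592 to 5.04 ± 1.37 FPKM at 24 h, and the other (CsaV3_1G034090) fell at 24 h, from 9.63 ± 2.31 to 3.01 ± 0.343 (log2 -1.62, SE 0.19).

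Among the 10 CDKs and subunits, 1 rose and 5 fell at 3 h (10.0% and 50.0%, against 29.4% and 28.3% of all tested genes). The one that rose was CDK 11B-like (log2 0.97), and its call at 3 h was lost without any of several single libraries (adjusted p 0.0529 to 0.156). The CDK G-2-like gene (CsaV3_2G025350, chromosome 2, 17434982 to 17439878), of a class tied to splicing in Arabidopsis, had 149, 142 and 159 FPKM at 0 h. It had 28.8, 24.8 and 25.1 FPKM at 3 h, 19.9, 15.9 and 15.7 at 12 h and 39.2, 30.4 and 21.0 at 24 h. The unchilled libraries stood far above all others, with log2 changes of -2.52 (SE 0.18), -3.08 (SE 0.19) and -2.26 (SE 0.18) and adjusted p-values of 4.06e-07, 4.13e-08 and 2.82e-07. The G-2 gene itself (CsaV3_5G030480) moved little, with 35.4 ± 1.25 FPKM at 0 h, 29.2 ± 1.4 at 3 h and 38.7 ± 1.19 at 24 h (log2 -0.28 and 0.19, SE 0.06 each, both called). A regulatory subunit 1-like gene (CsaV3_6G018770), whose product docks on CDKs, went from 21.7 ± 2.68 FPKM to 11.4 ± 2.32, 8.17 ± 1.15 and 7.37 ± 0.988. CDK 11B-like (CsaV3_1G017080) rose at 24 h, from 1.68, 1.13 and 0.589 FPKM to 15.9, 12.7 and 8.29 (log2 3.47, SE 0.39, adjusted p = 5.15e-06), on about 18.0 and 204 fragments. The most abundant CDK at 24 h, CDK 13-like (CsaV3_6G008690), was called at no duration, at 69.6 ± 5.0 FPKM at 0 h and 64.5 ± 6.93 at 24 h.

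**Figure D3:**
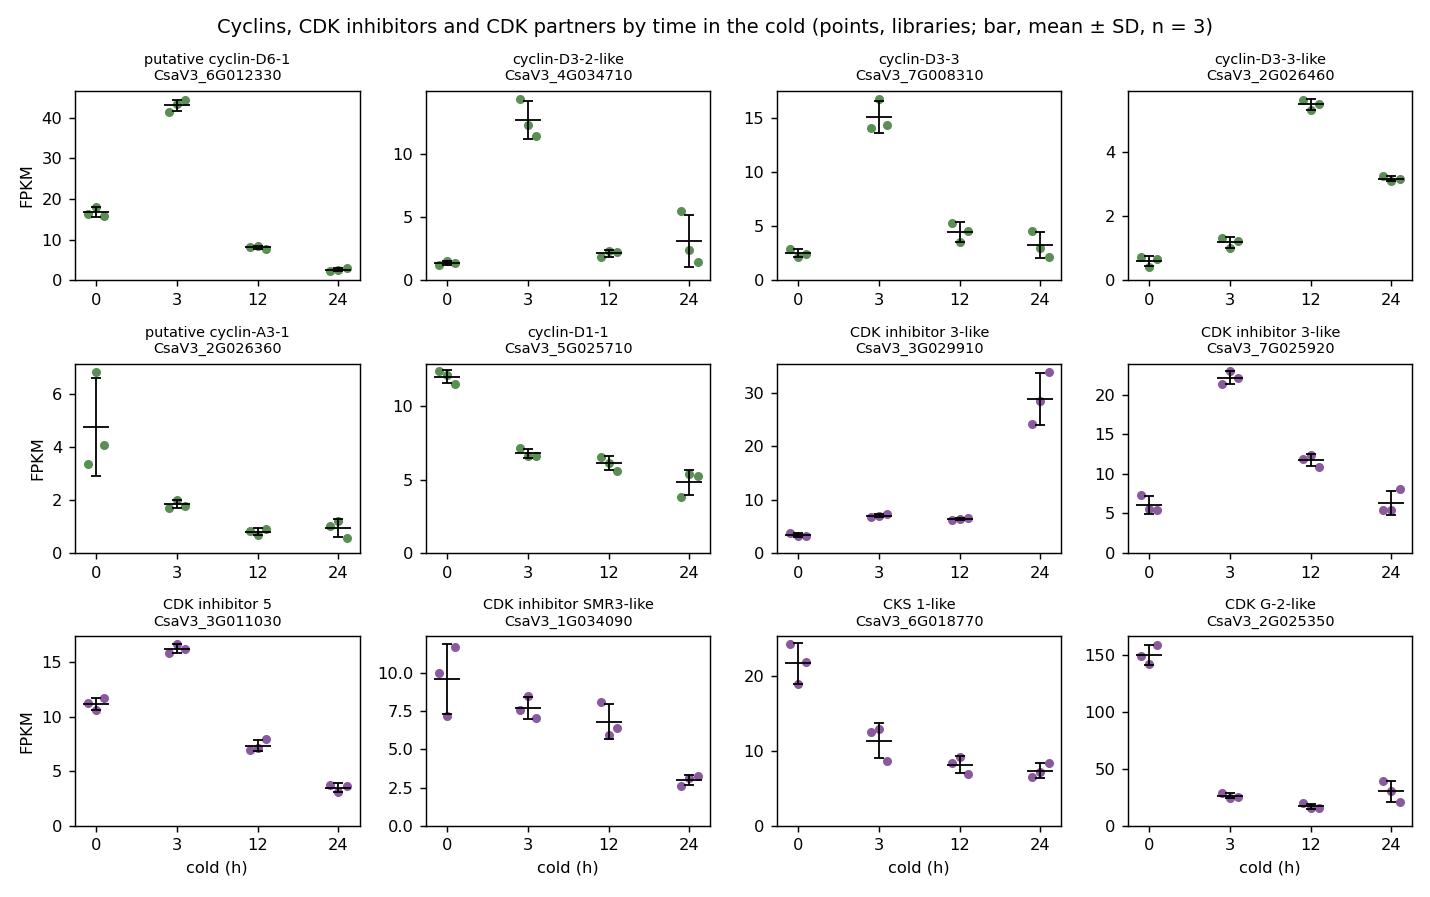
Level in FPKM (vertical axis, from 0) against time in the cold in hours (evenly spaced, not to scale) for 6 cyclins, 4 CDK inhibitors, a CDK regulatory subunit (CKS) and CDK G-2-like, with a point per library and a bar for mean ± SD (n = 3). Cyclin-D6-1, D3-2-like, D3-3 and an inhibitor 3-like gene (CsaV3_7G025920) peak at 3 h, whereas the other inhibitor 3-like gene is highest at 24 h.

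Kinesins went both ways in near equal numbers, with 7 rising and 5 falling at 3 h, 8 and 9 at 12 h, and 10 and 11 at 24 h. Of the 27 kinesins 25.9% rose and 18.5% fell at 3 h, where 29.4% and 28.3% of all tested genes did. The shares were 29.6% and 33.3% at 12 h and 37% and 40.7% at 24 h, near those of all tested genes (34.4% and 33.0%, and 36.2% and 37.9%). The most abundant was KCA1 (CsaV3_6G045040), whose Arabidopsis relative acts in chloroplast movement. It had 94.3, 96.1 and 94.7 FPKM at 0 h, 97.9, 84.4 and 98.9 at 3 h, 79.4, 72.6 and 75.3 at 12 h and 60.4, 70.6 and 73.4 at 24 h, which is lower in every library from 12 h on (log2 -0.42, SE 0.08, adjusted p = 0.000647 at 24 h). Of 3 genes named kinesin-13A, motors that take microtubules apart at their ends, 1 rose early and stayed high: CsaV3_1G024160 had 7.97 ± 0.671, 32.7 ± 1.75, 25.5 ± 2.48 and 24.5 ± 6.93 FPKM in order of time. Its log2 changes were 2.03, 1.73 and 1.67 (SE 0.17 each, adjusted p at most 2.19e-06). The second (CsaV3_6G022300) rose only at 24 h, from 33.1 ± 0.704 to 48.1 ± 4.93 FPKM, and the remaining one (CsaV3_7G033280) was called at no duration.

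A kinesin-4-like gene (CsaV3_3G039730) had 1.05, 1.17 and 1.08 FPKM at 0 h, 8.60, 7.21 and 7.70 at 3 h, 2.63, 2.09 and 2.06 at 12 h and 6.39, 6.42 and 5.18 at 24 h. It was high at 3 and 24 h and lower between, with groups that did not overlap. Its log2 changes against 0 h were 2.83 (SE 0.13, adjusted p = 9.49e-09), 1.09 (SE 0.12, adjusted p = 7.43e-06) and 2.5 (SE 0.13, adjusted p = 4.13e-09). Kinesin-related protein 4 (CsaV3_6G034290) rose from 0.0852 ± 0.0765 FPKM at 0 h to 2.42 ± 0.199 at 12 h. A 125 kDa kinesin-related gene (CsaV3_1G033760), whose kind slides spindle microtubules apart, rose from 0.984 ± 0.0316 to 4.40 ± 0.578 FPKM at 12 h and 4.10 ± 1.17 at 24 h.

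NACK1 (CsaV3_7G000390), whose kind is known in tobacco for growth of the phragmoplast, had 18.2, 16 and 18.7 FPKM at 0 h, 4.17, 4.47 and 3.87 at 3 h, 7.87, 7.13 and 6.71 at 12 h and 9.26, 7.68 and 7.59 at 24 h. It fell most at 3 h (log2 -2.08, SE 0.10, adjusted p = 1.98e-08) and stayed below its 0 h libraries. NACK2 (CsaV3_4G005820), of the same family, had instead 21.7 ± 0.923, 34.7 ± 1.24, 14.8 ± 0.854 and 13.6 ± 2.93 FPKM, a rise and then a fall. KIFC3 (CsaV3_1G039610) fell from 14.1 ± 1.27 to 4.82 ± 0.592 FPKM at 12 h and 4.85 ± 0.695 at 24 h, kinesin-related protein 11-like (CsaV3_2G015170) from 26.9 ± 1.98 to 14.9 ± 0.547 at 3 h, and KIF19 (CsaV3_6G044610) from 4.35 ± 0.285 to 1.70 ± 0.231 at 24 h. The 2 matches that are neither cyclin nor kinesin were a calcyclin-binding protein (CsaV3_1G032420), which rose from 95.7 ± 4.36 to 191 ± 4.34 FPKM at 3 h, and a cyclin-D-binding Myb-like factor (CsaV3_3G009340), which fell from 3.12 ± 0.361 to 1.54 ± 0.425 at 24 h and overlaps a gene on the opposite strand.

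**Figure D4:**
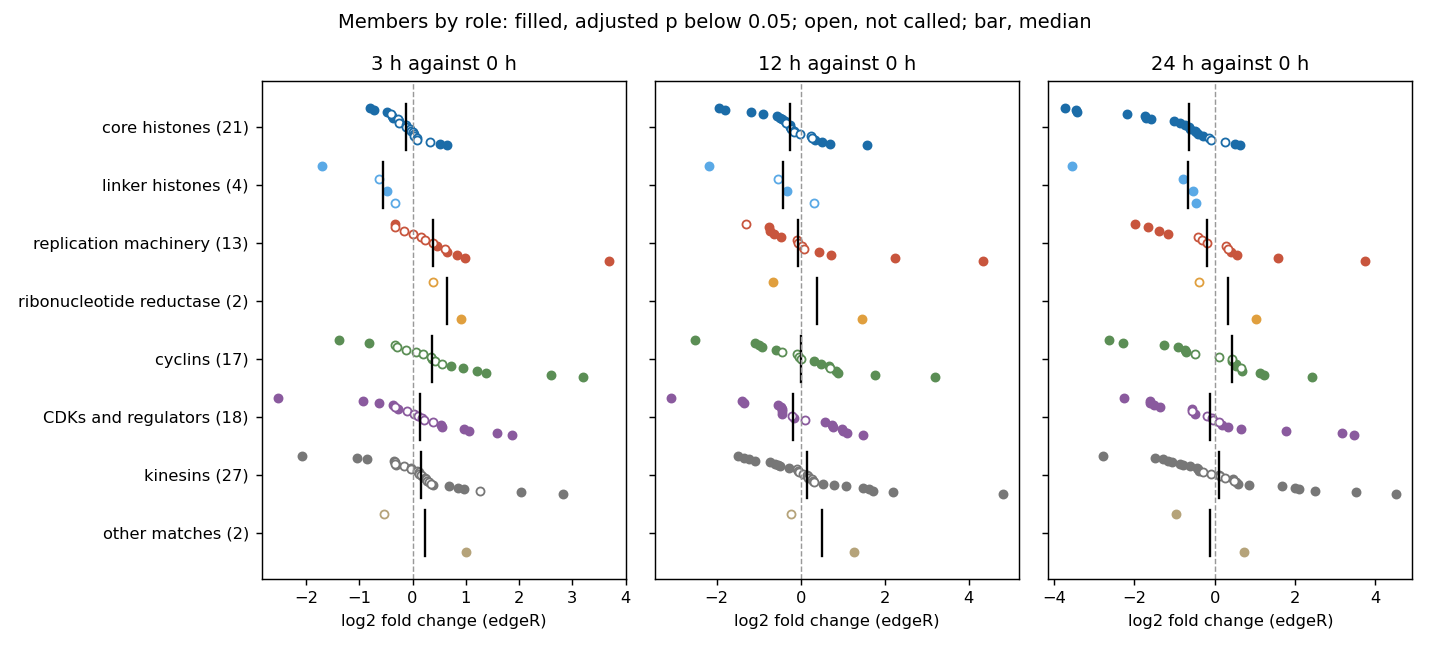
Log2 fold change against 0 h (horizontal axis, edgeR) of each of 104 members after 3, 12 and 24 h of cold, by role; filled points have an adjusted p below 0.05, open points do not, and bars mark medians. Core histones shift left with time to a median of -0.63 at 24 h, while cyclins, CDK genes and kinesins spread to both sides at each duration.

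Over all roles, 29 members rose and 21 fell at 3 h, 32 rose and 40 fell at 12 h, and 31 rose and 49 fell at 24 h. In the F test over all 3 durations 92 of 104 members changed, a share of 88.5% beside 89.3% of all tested genes. This share, which ignores direction, was thus close to the background. At 3 h 27.9% of members rose and 20.2% fell, against 29.4% and 28.3% of all tested genes. At 12 h 30.8% and 38.5% did (34.4% and 33.0% of all tested genes), and at 24 h 29.8% and 47.1% (36.2% and 37.9%). From 3 to 12 h, 27 rose and 37 fell (26.0% and 35.6%, against 27.9% and 27.6% of all tested genes). From 12 to 24 h 13 rose and 38 fell (12.5% and 36.5%, against 24.5% and 27.4%). With a change of at least 2-fold also required, 10 members rose and 5 fell at 3 h (11.5% and 8.37% of all tested genes) and 16 and 13 at 12 h (16.0% and 13.5%). At 24 h 15 rose and 26 fell (18.9% and 18.6%), and 8 of the 26 were core histones and 4 were MCM ring subunits. From 3 to 12 h the counts were 8 and 17 (9.46% and 9.69%), and from 12 to 24 h 6 and 20 (8.69% and 8.75%).

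A rise at 3 h followed by a fall below 0 h at both later durations was called in 5 members, or 4.81%, against 1.63% of all tested genes. These were MCM4, cyclin-D6-1, the 2 inhibitor 5 genes and NACK2. A fall at all 3 durations was called in 14 members (13.5%, against 16.9% of all tested genes), and calls in both directions in 12 (11.5%, against 10.3%). The comparisons with 0 h share the 0 h libraries, so their calls are not independent of each other.

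**Figure D5:**
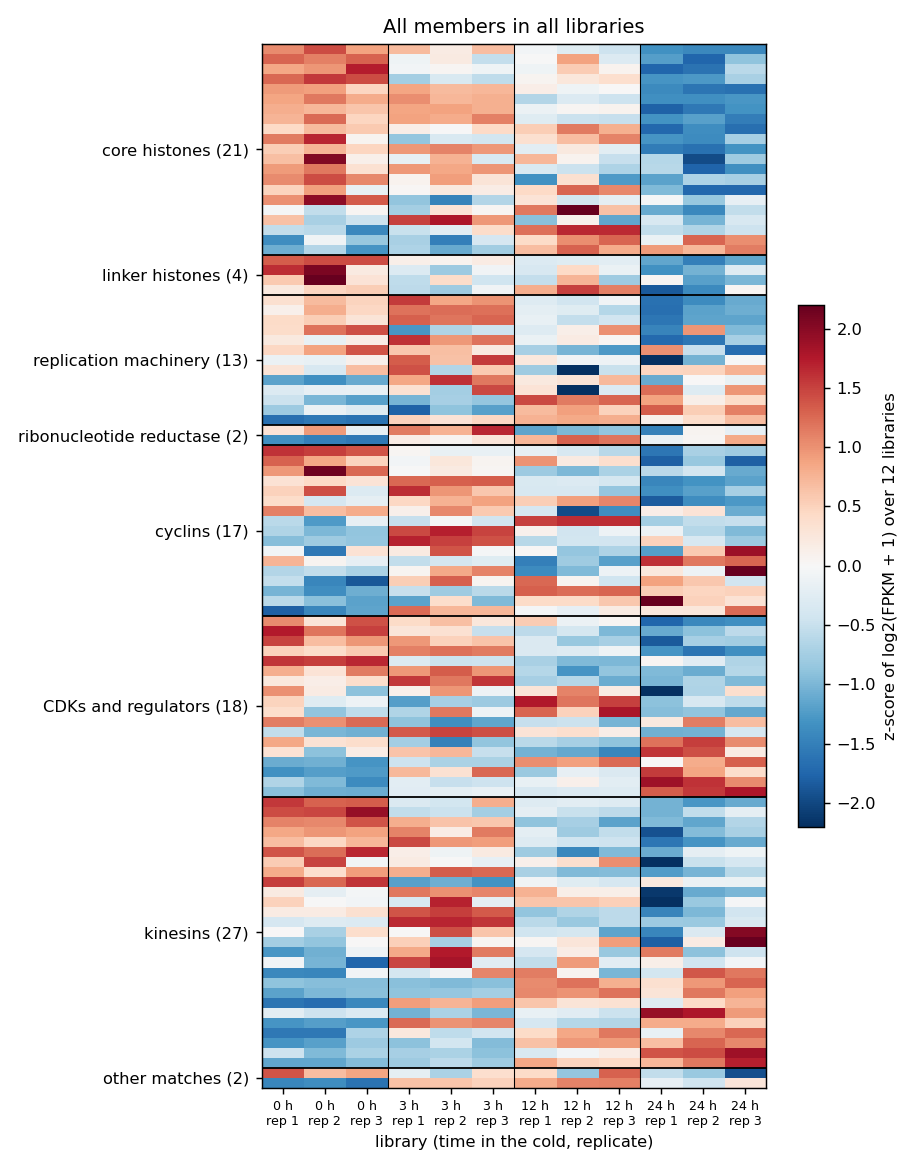
Z-score of log2(FPKM + 1) over 12 libraries (colour) for each of 104 members (rows, grouped by role and ordered by the difference of 24 h from 0 h) in each library (columns). Most core histone rows turn blue in the 24 h libraries, and a band of replication, cyclin and CDK rows is red in the 3 h libraries.

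Other genes of DNA replication and division, taken from a list of descriptions that excludes the members (141 genes, 104 of them tested), went both ways. Of these, 33 rose and 20 fell at 3 h, 28 rose and 34 fell at 12 h and 31 rose and 41 fell at 24 h. The shares that rose and fell were 31.7% and 19.2% at 3 h, 26.9% and 32.7% at 12 h and 29.8% and 39.4% at 24 h. For all tested genes they were 29.4% and 28.3%, 34.4% and 33.0%, and 36.2% and 37.9%. The share that fell at 3 h and the shares that rose at 12 and 24 h were thus below the background, and the others lay near it. The list holds 21 genes named topoisomerase 2-binding protein 1, of which 15 fell at 24 h; without them 31 rose and 26 fell. Cyclin-U1-1 (CsaV3_2G035200), of a cyclin class that in yeast acts in phosphate signalling, fell from 10.5 ± 0.566 FPKM at 0 h to 0.285 ± 0.0859 at 24 h (log2 -5.12). Cyclin-U2-1 (CsaV3_6G009080) rose from 1.35 ± 0.268 to 17.5 ± 1.14 FPKM at 12 h, and cyclin-U4-1-like (CsaV3_6G006470) went from 2.06 ± 0.121 to 11.4 ± 1.04 at 3 h and 0.429 ± 0.141 at 24 h. The microtubule bundler MAP65-6 (CsaV3_5G017120) rose from 7.03 ± 0.791 to 89.6 ± 28.2 FPKM at 24 h. Condensin-2 D3 genes (CsaV3_UNG225770 and CsaV3_UNG067570) rose at 3 h, from 0.138 ± 0.125 to 3.23 ± 0.226 and from 0.236 ± 0.137 to 4.05 ± 0.228 FPKM. Topoisomerase 2-binding protein 1 genes (CsaV3_UNG169320 and CsaV3_2G000050) fell at 3 h, from 21.2 ± 1.71 to 6.25 ± 0.382 and from 20.1 ± 1.72 to 6.58 ± 1.17 FPKM.

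The 32 matches below the filter were mostly motors and regulators of mitosis. They included phragmoplast orienting kinesins, KIN12B and KIF22 kinesins, CDK B2-2 (CsaV3_4G037650), whose highest library had 1.56 FPKM, and MCM9 (CsaV3_7G006750) with 1.29, and another H3.2 gene (CsaV3_4G024060) was at 0 in every library. Of the 31 with any count, 3 rose and 2 fell at 3 h and 2 rose and 4 fell at 24 h when the test was run without the filter. Of all 21319 genes in that fit, 4910 rose and 4534 fell at 3 h, and 6380 rose and 6452 fell at 24 h. Low counts limit what can be called among the 31.

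Several markers moved at the times when histones fell. Between 12 and 24 h all 19 mesophyll genes fell, where 27.4% of all tested genes did. In the same step 14 of 21 core histones fell, and the part of mesophyll genes in the result was not tested. Mesophyll genes had risen before: 17 of 19 rose and none fell at 3 h and again at 12 h. Of all tested genes 29.4% rose at 3 h and 34.4% at 12 h. Of the 16 tested genes on the meristem and young-leaf list, taken by name alone, 9 rose and 4 fell at 24 h. The shares were 56.2% and 25.0%, against 36.2% and 37.9% of all tested genes. Of 50 genes on the phloem list 27 rose and 17 fell at 24 h, of 11 epidermis genes 6 and 4, and of 10 guard cell genes 2 and 5. The phloem list took in every description with the word lectin. It is thus not particular to phloem, and its values cannot be read as those of phloem alone. The shares that fell, 34.0% of phloem and 36.4% of epidermis genes, were near the 37.9% of all tested genes. The shares that rose, 54.0% and 54.5%, were above the 36.2% of all tested genes. Among guard cell genes 50.0% fell, in a list of only 10. The summed level of all 85 phloem genes was 602 to 818 FPKM at 0 h and 868, 1638 and 1658 at 24 h, with replicate 1 apart from the other libraries of its group. That of all 18 epidermis genes was 242 to 338 FPKM at 0 h, 264 to 279 at 3 h, 145 to 146 at 12 h and 126 to 146 at 24 h, lower although more of them rose than fell. That of all 17 guard cell genes was 54.3 to 63.2 FPKM at 0 h and 54.0 to 70.8 at 24 h.

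The mean z-score of the 21 core histones was 0.36 to 0.82 in the 0 h libraries, 0.12 to 0.22 at 3 h, 0.09 to 0.46 at 12 h and -1.15 to -0.81 at 24 h. The tested genes most like it over the 12 libraries were named for chloroplast proteins: a pentatricopeptide repeat protein (CsaV3_3G027740, Pearson r = 0.978), a leaf ferredoxin (CsaV3_3G019220, 0.975) and a tetrapyrrole-binding protein (CsaV3_6G003920, 0.973). The ferredoxin was at 3660 ± 231 FPKM at 0 h and 1716 ± 85.9 at 24 h. These values are descriptions over libraries that fall into 4 groups.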

How the data were processed

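The 12 libraries, 3 per duration of cold, are RNA-seq of cucumber leaf. Per the submitters' processing notes, cutadapt 1.9 and FastQC were used; per the series design text, reads were mapped with HISAT2. For counter, genome build, annotation release and strand setting the sources name nothing. The authors deposited estimated counts per gene, all of them whole, so none were rounded; low values lie near multiples of 3.77, taken as the units of 1 fragment. The authors also deposited FPKM in the same table, where 0.0001 stands for each of 61048 counts of 0 and was read as 0.

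The design assumed raw counts; the estimated counts were tested with edgeR 4.0.16 (R 4.3.3): quasi-likelihood test, TMM scaling, 1 fit over 12 libraries, no block. The filter of 1 FPKM in 3 libraries left 16432 genes and 99.84% of counts. Tests were two-sided, adjusted over all tested genes, and called at an adjusted p below 0.05; a standard error is the log2 change over the root of its F value. The biological coefficient of variation was 17.2%. Members, lists and tests were chosen with earlier results of these data known. Calcyclin-binding protein and the cyclin-D-binding factor were kept apart from cyclins. Genes were named by rule: all members of roles with up to 6 members; in larger roles the 2 most abundant and, per comparison with 0 h, the 2 largest called rises and falls with 2 FPKM or more in the group that is higher; the same rises and falls of the list of other division genes; and the 3 genes most like the core histones. Further genes named were chosen after their values were seen. Deviations of same-numbered libraries correlated at r between -0.0720 and 0.0757, and those of differently numbered ones between -0.102 and 0.127. These values show no sign of pairing by number. They cannot exclude a shared plant or batch that acts on few genes, and the labels do not say what the numbers mean. Alternatives included DESeq2 1.42.0, limma 3.58.1 on log2(FPKM + 1), other scalings and filters, and leaving out each library. The procedure was tested on simulated data. No sequence was at hand to print. Plots used matplotlib 3.10.9 in Python 3.11.15.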

Additional observations from a re-analysis of the deposited data

How the results depend on the processing

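Of 4431 values recomputed for named genes, 4227 kept direction and side of the threshold, 147 lost the call, 57 gained one and none reversed. Core histones that fell at 24 h numbered 15 or 16 with any library left out, 16 with other scalings, DESeq2, limma or no filter, and 14 with the stricter filter. With a mean of at least 5 FPKM required, 61 members were tested, which lowers counts by construction: 15, 17 and 16 rose at 3, 12 and 24 h, 16 rose and 22 fell from 3 to 12 h, 7 rose and 25 fell from 12 to 24 h, and 56 changed at any duration. Of all 11260 genes that passed this stricter filter, 3685, 4155 and 4432 rose at 3, 12 and 24 h. From 3 to 12 h 3315 of them rose and 3523 fell, and from 12 to 24 h 3333 and 3160. With all 104 members and 2-fold also required, 10 rose and 5 fell at 3 h, 16 and 13 at 12 h, 15 and 26 at 24 h, 8 and 17 from 3 to 12 h, and 6 and 20 from 12 to 24 h.

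Medians by role depended on which genes remained. With a mean of at least 5 FPKM required, the replication machinery kept only MCM8 and SLD5, so its median there describes these genes alone. With the stricter filter that of the replication machinery became 1.69, 2.36 and 2.13 at 3, 12 and 24 h (0.38, -0.07 and -0.20 with all), that of cyclins 0.07, -0.12 and -0.92 (0.36, -0.00 and 0.43), that of CDK genes -0.03 at 3 h and -0.35 at 12 h (0.13 and -0.19) and that of kinesins -0.11 at 24 h (0.12). On log2(FPKM + 5) with limma, the replication machinery and cyclins each had 0.13 at 3 h, and cyclins at 24 h had 0.25, 0.31 and 0.13 with pseudocounts of 1, 0.1 and 5. With 1 library left out, medians ranged from -0.2 to -0.01 (core histones, 3 h), -0.7 to -0.33, -0.58 to -0.19 and -0.82 to -0.44 (linker histones, 3, 12 and 24 h), 0.25 to 0.54 (replication, 3 h), -0.01 to 0.24 and 0.15 to 0.48 (cyclins, 12 and 24 h), 0.02 to 0.18 (CDK genes, 3 h) and -0.1 to 0.15 (kinesins, 24 h). The cause of the other shifts was not tested. With the replicate number as a block, 28 members rose and 23 fell at 3 h, 33 and 39 at 12 h, and 31 and 49 at 24 h. Of all 16432 tested genes, 4743 rose and 4563 fell at 3 h with this block, 5603 and 5336 at 12 h, and 5874 and 6189 at 24 h. Dividing counts by units per fragment was added after the data were seen. Members near 1 FPKM rest on few fragments, and small changes there were not detectable at this depth.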

Other observations

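Other genes in the deposited table share a chromatin annotation with the core histones. The GO term for the nucleosome is carried by 45 genes, 20 of them core histone members, and by 18 genes whose descriptions name no histone of the types above. The term does not make a gene a histone: the 18 include eukaryotic initiation factor 4A-8 (CsaV3_3G043700), 2 HMG-Y-related proteins and 2 telomere repeat-binding factors. Also among the 18 is a gene named only histone superfamily protein (CsaV3_6G003690), at 4.05 ± 1.08 FPKM at 0 h and 1.04 ± 0.171 at 24 h (log2 -1.89). These 18 were looked at after the members' values were seen. Of the 16 that were tested, 1 rose and 9 fell at 3 h, 1 rose and 9 fell at 12 h, and 3 rose and 10 fell at 24 h. The shares were 6.25% and 56.2% at 3 and 12 h and 18.8% and 62.5% at 24 h. For all tested genes they were 29.4% and 28.3% at 3 h, 34.4% and 33.0% at 12 h, and 36.2% and 37.9% at 24 h. The median log2 change of the 16 at 24 h was -1.67, against -0.03 for all tested genes. A group of 4 without informative names lies beside histone H4 and H1-II-like on chromosome 6, between 12703873 and 12736216. They fell at 24 h from 7.65 ± 2.08 to 0.663 ± 0.355 FPKM (CsaV3_6G017030), from 15.1 ± 1.43 to 2.62 ± 0.741 (CsaV3_6G017040), from 8.35 ± 0.378 to 1.36 ± 0.257 (CsaV3_6G017110) and from 14.4 ± 1.39 to 2.57 ± 1.21 (CsaV3_6G017120; SD, n = 3). Their log2 changes were -3.45, -2.47, -2.56 and -2.41 (edgeR adjusted p at most 4.45e-05).

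A pair of HMG-Y-related genes, of a family of DNA-bending chromatin proteins, also carry the term and fell at each duration. HMG-Y-related protein A-like (CsaV3_3G020800) had 8.88 ± 0.568, 7.05 ± 0.351, 2.84 ± 0.251 and 1.43 ± 0.248 FPKM in order of time, and HMG-Y-related protein A (CsaV3_5G028310) 3.15 ± 0.509, 1.67 ± 0.392, 0.881 ± 0.0688 and 0.548 ± 0.0584. Telomere repeat-binding factor 1 (CsaV3_4G000180) rose at 24 h, from 25.0 ± 1.25 to 62.9 ± 7.40 FPKM, whereas factor 2 (CsaV3_6G044170) fell from 9.55 ± 0.470 to 3.35 ± 0.579.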
